A study of Mus musculus with 2 samples.

Results

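The genes described here handle vitamin A and retinoic acid in the intestine of mouse embryos. They are Rbp2, Crabp1, Crabp2, Aldh1a1, Aldh1a2, Aldh1a3, Cyp26a1, Cyp26b1 and Bco1, chosen by name as genes of retinoid binding, synthesis and breakdown, and all 9 were found among the 43346 gene identifiers of the tables. The samples were 2 total RNA libraries of whole intestine from B6NCrl embryos of 16.5 days, each from a pool of both sexes and from 10 ng of RNA. Replicate 2 was pooled from 41 embryos, and no label states the pool size of replicate 1. Both pools carry the same donor identifier in the labels, no embryo was treated, and there is 1 group, so no condition could be compared and no p-value is given.

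Vitamin A enters the gut epithelium as retinol or as carotenoids from the lumen or, before birth, reaches tissues through the blood. BCO1 cleaves beta-carotene to retinal, RBP2 carries retinol and retinal inside absorptive cells toward esterification, and the esters leave in lipoproteins. In cells that signal with retinoic acid, enzymes of the ALDH1A family make it from retinal, CRABP proteins carry it, nuclear receptors of the RAR and RXR families read it, and enzymes of the CYP26 family break it down.

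Levels are in TPM, a measure of transcript abundance corrected for length, and are given for each library or as mean ± SD of the 2 libraries (n = 2). Detected means a TPM of 1 or more in each library, which 62.0% of 21474 protein-coding genes reached. The libraries held 42040766 and 41480301 estimated reads. In the labelled tissue, 11 of 12 enterocyte and 10 of 10 epithelium markers were detected. Markers of other organs were detected too: 6 of 6 pancreas markers summed to 4613 and 6016 TPM, and 8 of 8 liver markers to 484 and 288. Of 6 stomach markers 3 were detected (Atp4a, Tff1 and Tff2), at sums of 10.02 and 9.48 TPM for the list, and of 5 kidney markers 0 were. The sample is bulk tissue, so fewer cells of a type and less RNA per cell cannot be told apart.

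The starts of 3 of these genes are shown. Those of Bco1 and Cyp26a1 hold sequence repeats of a kind that retinoid and related nuclear receptors are known to bind. The start of Rbp2, the most abundant of the 9, holds no such repeat but a 9-base match that can form part of one. RefSeq promoter windows on GRCm38.p6, from 250 bases before to 50 after a transcription start, were matched by symbol for 7 of the 9 genes (8 windows, since Aldh1a1 has more than 1 start). Crabp2 and Aldh1a3 had no match. Capitals mark motif matches, and each stretch is on the plus strand, which is the strand of its gene. In Rbp2 (chr9:98490387-98490536) the capitals mark a 9-base match to CAAAGGTCA, read on the opposite strand, and a TATAAA motif on each strand. In Bco1 (chr8:117095715-117095846) they mark a direct repeat on the opposite strand and TATAAA. In Cyp26a1 (chr19:37697769-37697798) they mark a longer direct repeat.
Rbp2: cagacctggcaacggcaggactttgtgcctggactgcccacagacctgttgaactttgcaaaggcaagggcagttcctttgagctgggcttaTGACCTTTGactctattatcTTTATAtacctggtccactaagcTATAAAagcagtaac
Bco1: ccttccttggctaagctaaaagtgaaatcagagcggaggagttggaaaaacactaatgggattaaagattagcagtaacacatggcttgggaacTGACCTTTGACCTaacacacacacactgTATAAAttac
Cyp26a1: ttaaagaTGAACTTTGGGTGAACTaatttg

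The Rbp2 and Bco1 stretches overlap no GENCODE M21 exon of their gene, although the Rbp2 stretch lies inside the span of a longer Rbp2 model. The Cyp26a1 stretch lies within the RefSeq span of the gene. The repeats searched join a pair of 6-base units, each being the classical AGGTCA, the variant AGTTCA, the variant GGGTCA or the variant GGTTCA, with 1, 2 or 5 bases between them (DR1, DR2 and DR5), on both strands. DR1 repeats are bound by RXR with several partners and by HNF4, and DR5 and DR2 repeats are the classical elements of RAR with RXR. Read on its own strand, the Cyp26a1 match was the DR5 below, 32 to 16 bases before the start, and the Bco1 match was the DR1 below, 56 to 44 bases before the start.
Cyp26a1 DR5: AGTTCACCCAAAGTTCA
Bco1 DR1: AGGTCAAAGGTCA

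Such repeats were rare. Of 32851 promoter windows in the RefSeq table, 0.0974% held a DR5, 0.222% a DR1 and 0.268% a DR2. Among the 8 windows of the retinoid genes 1 held a DR5, 1 a DR1 and none a DR2. CAAAGGTCA, which can form part of a DR1 and does so in Bco1, stood in 0.478% of all windows and in those of Rbp2 and Bco1, at 58 and 56 bases before the start. CAAAGTCCA, a further HNF4 sequence, was in 0.475% of all windows and in none of these. TATAAA, the motif of the TATA box, was in 13.6% of all windows and in 4 of these 8, those of Rbp2, Bco1, Cyp26a1 and Cyp26b1. In Bco1 alone it began on the gene strand within 40 to 20 bases before the start, at 28, as in 1.99% of all windows. In Rbp2 it stood 15 bases before the start on the gene strand and 38 before on the opposite strand. The Cyp26b1 match began 139 bases before the start, and the Cyp26a1 match lay after the start, from base 30. The windows of Crabp1, Aldh1a1 and Aldh1a2 held no match to any of these letters. The motifs were chosen after these promoters were read, so the counts in these windows beside the shares of all windows test nothing. A match is a description of letters and shows no binding.

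**Figure D1:**
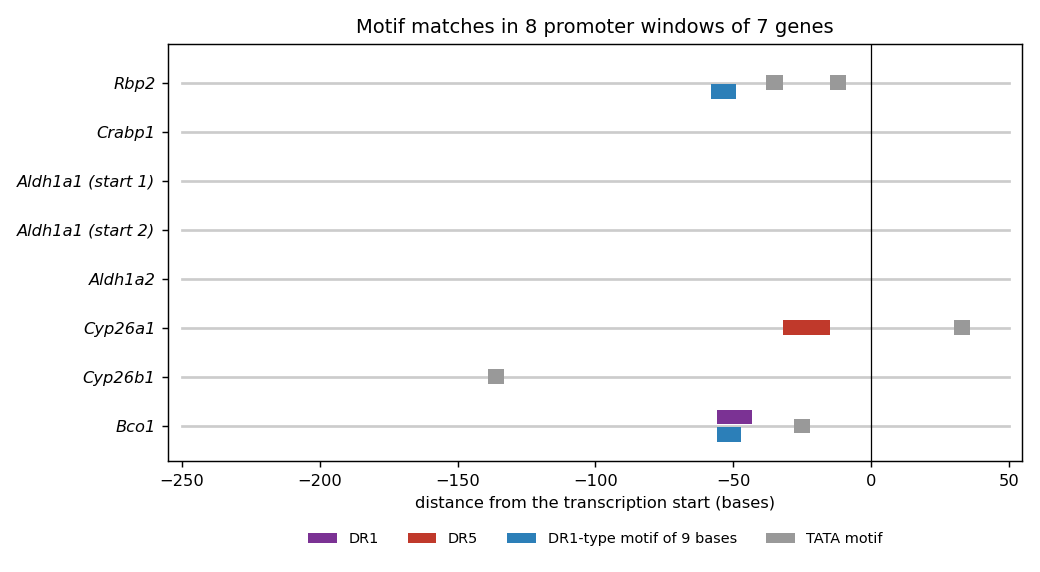
Motif matches in the promoter windows, with the distance from the transcription start in bases on the horizontal axis and 1 line for each window. Coloured blocks are matches on either strand: Cyp26a1 holds the DR5, Bco1 the DR1, and Rbp2 and Bco1 share the DR1-type motif of 9 bases at 58 and 56 bases before the start.

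The 9 genes spread over 3 orders of magnitude, from the carrier Rbp2 at 799 ± 224 TPM to the breakdown enzyme Cyp26a1 at 0.445 ± 0.0778. Of the 9, 7 were detected, against 62.0% of 21474 protein-coding genes. The exceptions were Bco1, which stood at the threshold, and Cyp26a1. From high to low the order was Rbp2, Aldh1a1, Aldh1a2, Aldh1a3, Crabp1, Crabp2, Cyp26b1, Bco1 and Cyp26a1. Neighbours were called apart when the log2 ratio of their TPM, with a pseudocount of 0.1, had the same sign in both libraries and a mean above 3 SD, and 7 of 8 neighbouring pairs were. Cyp26b1 and Bco1 were not apart, with a log2 ratio of 0.28 ± 0.26. The ordering is by transcript per length. In reads without length, Crabp2 stood below Cyp26b1, at a log2 ratio of -1.08. The Cyp26b1 model is 4700 bases long, and the mean Crabp2 model was 923 bases in replicate 1.

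**Figure D2:**
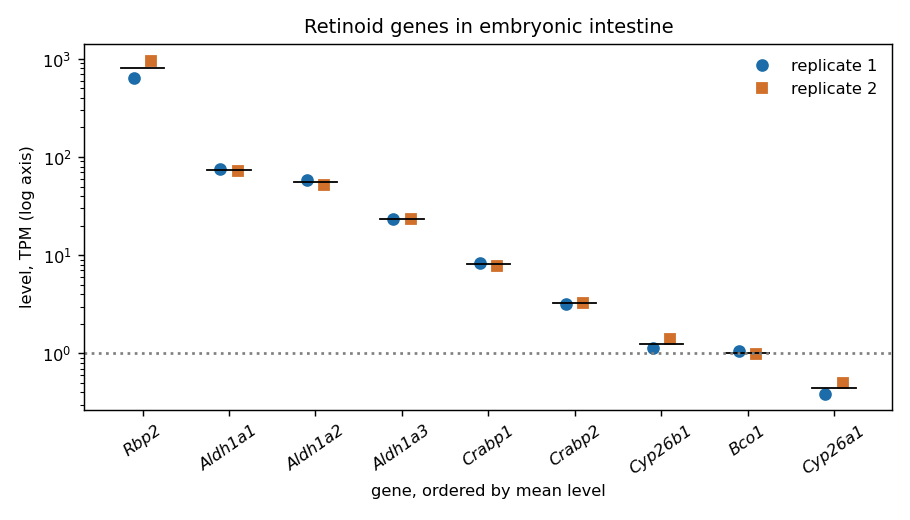
Level of each gene in TPM (log axis) in replicate 1 (circles) and replicate 2 (squares), with a bar at the mean and a dotted line at a TPM of 1. Rbp2 stands alone near 1000, the Aldh1a genes lie between 23 and 75, and Bco1 and Cyp26a1 lie at or under the line.

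Uptake was represented by Rbp2, the highest of the 9 genes, and Bco1, among the lowest 3. Rbp2 (ENSMUSG00000032454.5; chromosome 9, 98486115 to 98509781 in GENCODE M21 on mm10), the retinol carrier of the absorptive cell, read 640.6 TPM in replicate 1 and 958.06 in replicate 2, from 10774 and 15666 reads. It ranked 151 among 21474 protein-coding genes, and it made up 78.9% and 85.5% of the summed TPM of the 9 genes. Bco1 (ENSMUSG00000031845.11; chromosome 8, 117095854 to 117133720), the enzyme that cleaves beta-carotene, read 1.05 and 0.98 TPM from 69 and 63 reads. The deposited intervals of its TPM, whose level the files do not state, ran from 0.856 to 1.37 and from 0.80 to 1.31, so both libraries straddled the detection threshold. Rbp2 stood 703-fold above Bco1 (log2 9.46 ± 0.47), a distance that was log2 8.60 with a pseudocount of 1 and 7.53 in reads without length.

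A relative and a known regulator of Bco1 were read beside it. Bco2, the mitochondrial enzyme that cleaves carotenoids off centre, read 6.51 and 8.91 TPM, and Bco1 stood 6.92-fold below it (log2 -2.79 ± 0.38). Isx, an intestinal transcription factor known to repress Bco1 and the carotenoid and lipid receptor Scarb1, read 86.51 and 92.84 TPM, which was 80.5-fold above Bco1. With a pseudocount of 1 these log2 ratios of Bco1 were -2.10 to Bco2 and -5.49 to Isx, against -6.33 ± 0.14 to Isx with 0.1. Scarb1 itself read 62.44 and 51.2 TPM. Bco1 was thus at the detection threshold and Scarb1 well above it. Whether Isx acted on either gene in this tissue was not tested.

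Synthesis enzymes were the second most abundant group. Aldh1a1 (ENSMUSG00000053279.6; chromosome 19, 20492715 to 20643465), which makes retinoic acid from retinal in many epithelia, read 74.9 and 72.65 TPM. Aldh1a2 (ENSMUSG00000013584.5; chromosome 9, 71215789 to 71296243), the main synthesis enzyme of early embryos and of mesenchyme and mesothelium, read 58.89 and 52.41. Aldh1a3 (ENSMUSG00000015134.10; chromosome 7, 66390890 to 66427517), the third enzyme of the family, read 23.23 and 23.34. The libraries did not overlap between any of these genes. Aldh1a1 stood 1.33-fold above Aldh1a2 (log2 0.41 ± 0.09) and 3.16-fold above Aldh1a3 (log2 1.66 ± 0.04), and Aldh1a2 stood 2.38-fold above Aldh1a3 (log2 1.25 ± 0.12). Of the summed TPM of the family, Aldh1a1 held 48.3% ± 0.887, Aldh1a2 36.4% ± 1.55 and Aldh1a3 15.3% ± 0.660. The lead of Aldh1a1 over Aldh1a2 was small: in reads without length it was log2 0.26 ± 0.09 and no longer apart, and the lead over Aldh1a3 was then 1.03.

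Aldh1a1 has a close copy, Aldh1a7, on the opposite strand of chromosome 19, with 49487 bases between them. The coding sequences of Aldh1a1 and Aldh1a7 were 91.6% identical, but of 1954 runs of 100 bases in the Aldh1a1 transcript only 1 occurred unchanged in that of Aldh1a7. Aldh1a7 read 14.5 and 14.29 TPM, and Aldh1a1 stood 5.10-fold above it (log2 2.35 ± 0.02). How reads that fit both were divided is the authors' estimate, and the split between them is uncertain to that extent. The coding sequences of Aldh1a1, Aldh1a2 and Aldh1a3 were 66.9% to 68.5% identical in pairs, with no run of 100 bases in common.

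The carriers of retinoic acid itself were low. Crabp1 (ENSMUSG00000032291.8; chromosome 9, 54764748 to 54773110) read 8.36 and 7.72 TPM from 173 and 155 reads. Crabp2 (ENSMUSG00000004885.5; chromosome 3, 87948666 to 87953376), known to pass retinoic acid to its nuclear receptors, read 3.22 and 3.26 from 78 and 76 reads. Crabp1 stood 2.44-fold above Crabp2 (log2 1.28 ± 0.09), and it held 71.3% ± 1.33 of their sum. Rbp2 belongs to the same protein family of intracellular lipid carriers, and it stood 96.3-fold above Crabp1 and 235-fold above Crabp2. Coding sequences were 70.3% identical between Crabp1 and Crabp2, against 52.2% between Rbp2 and Crabp1 and 53.4% between Rbp2 and Crabp2. The Crabp genes were thus closer to each other by coding sequence than either was to Rbp2.

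The breakdown enzymes of the CYP26 family were the lowest group. Cyp26b1 (ENSMUSG00000063415.8; chromosome 6, 84571414 to 84593908) read 1.13 and 1.39 TPM from 153 and 183 reads. Cyp26a1 (ENSMUSG00000024987.5; chromosome 19, 37697798 to 37701536), a gene that retinoic acid is known to induce and whose DR5 is printed above, read 0.39 and 0.50 TPM from 19 and 24 reads. The exact Poisson 95% intervals of the Cyp26a1 reads were 11.4 to 29.7 and 15.4 to 35.7, which cover counting error only. Cyp26a1 stood below Cyp26b1 by nearly the same factor in both libraries, at a log2 ratio of -1.33 in replicate 1 and -1.31 in replicate 2. The mean was -0.64 with a pseudocount of 1 and -2.75 in reads without length. Cyp26c1, which lies upstream of Cyp26a1 on the same strand with 4399 bases between them, had 1 and 0 reads, so it was at or under the floor of 3 reads. The neighbours Cyp26a1 and Cyp26c1 were thus both below a TPM of 1, and Cyp26b1 held 73.9% ± 0.564 of the Cyp26a1 and Cyp26b1 sum.

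Set against each other, the Aldh1a genes exceeded Cyp26a1 and Cyp26b1 by far at the transcript level. The Aldh1a genes summed to 157 and 148 TPM and the Cyp26 genes to 1.52 and 1.89, a 90.1-fold distance (log2 6.49 ± 0.28). In reads without length it was 51.5-fold. This sum was chosen after the single values were seen. It leaves out other enzymes able to oxidise retinoic acid, such as Cyp2s1 at 34.4 ± 1.37 TPM, so it is no measure of all breakdown enzymes. Aldh1a1 alone stood 54.6-fold above Cyp26b1 (log2 5.77 ± 0.23), or at log2 5.05 with a pseudocount of 1 and 4.61 in reads without length. Of the 14 pairs compared in all, 14 were apart in TPM, although the pair of Cyp26b1 and Cyp26c1 rests on 1 read of Cyp26c1. The share of other gene pairs that this rule calls apart is not known, so this count and that of the neighbours in level are descriptions.

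Each of these genes was read mainly from 1 transcript model. The tables hold 1 transcript for Crabp1, Aldh1a1, Aldh1a2 and Cyp26a1 and several for the other 5 genes, and the major transcript of those 5 was the same in both libraries, as it was for 92.0% of 9808 protein-coding genes that have several transcripts and reach 1 TPM in the mean. The major transcript took 99.3% and 99.6% of Rbp2 and 97.0% and 94.2% of Crabp2, where the rest was a form with a retained intron. By the deposited percent Aldh1a3 was the most divided, with 79.8% and 88.2% in a transcript of 3441 bases and 17.5% and 11.8% in a coding transcript of 1496 bases. The major transcripts of Cyp26b1 and Bco1 held all reads of their genes, but by the deposited posterior mean they held 75.3% and 65.8% of Cyp26b1 and 84.2% and 82.2% of Bco1, which makes Cyp26b1 more divided than Aldh1a3 (78.1% and 86.2%). At 63 to 183 reads, these shares rest on few reads. No overlapping gene that the tables list took more than 42 reads, the count of the unclassified Gm37113 inside Rbp2 in replicate 2. Aldh1a1 overlaps the opposite-strand RNA C730002L08Rik of GENCODE M21, and with strandedness not stated, their reads cannot be told apart.

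The pools differed in Rbp2 and little in the other 8 genes. Differences are log2 ratios of TPM, replicate 2 over replicate 1, centred on the median of the 13509 protein-coding genes that reach 1 TPM in the mean, and with 1 library a pool they have no replicate check. Rbp2 was 1.51-fold higher in replicate 2 (log2 0.60), and it was the only gene of the 9 past 1.5-fold, a distance that 3.85% of the 13509 genes passed, 2.38% upward in replicate 2. It passed narrowly: without centring the log2 ratio was 0.58, under the 1.5-fold line, and 0 of the 9 passed 2-fold, as 1.24% of the 13509 did. Next came Cyp26a1 (log2 0.31) and Cyp26b1 (0.29), both higher in replicate 2, and Aldh1a2 (-0.15), which was higher in replicate 1. The deposited intervals of TPM did not overlap between libraries for Rbp2 and Aldh1a2, as for 25.4% of the 13509 genes. Such an interval need not hold the TPM printed here. For Rbp2 the intervals were 616.4 to 640.3 and 924.2 to 953.7, just below its TPM of 640.6 and 958.06. The other genes lay between log2 -0.10 and 0.03. The middle 95% of all 13509 genes lay between -0.44 and 0.57, so Rbp2 was just outside it and the other 8 were inside.

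Markers of absorptive cells differed between the pools in the direction of Rbp2. Of the 11 enterocyte markers that reach 1 TPM in the mean, 11 were higher in replicate 2, by 1.38-fold in the median and by log2 0.25 to 0.84. The 12th, Treh, read 0.07 and 0.13 TPM, and none of the 12 was at 0. The summed TPM of the 12 listed enterocyte markers was 7194 in replicate 1 and 10691 in replicate 2. Against their median, Rbp2 stood at log2 2.54 in replicate 1 and 2.69 in replicate 2. The part of enterocyte content in the Rbp2 difference was not tested. General epithelium markers differed little, with a median of 1.05-fold, 8 of 10 being higher in replicate 2. Mesothelium markers, of cells known to carry Aldh1a2, were higher in replicate 2 in 4 of 5, by 1.14-fold in the median. Aldh1a2 was 1.11-fold higher in replicate 1, and its relation to mesothelium content was not tested. Mesenchyme markers stood at a median of 1.07-fold, 6 of 9 being higher in replicate 2.

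Markers of other organs differed between the pools in both directions. Of 6 pancreas markers, 6 were higher in replicate 2, by 1.28-fold in the median. Of 8 liver markers, 8 were higher in replicate 1, with a median log2 ratio of -1.18, and their sum was 484 TPM in replicate 1 and 288 in replicate 2. Adrenal and gonad markers summed to 52.9 and 6.90 TPM, at medians of 9.615 and 0.335. Only 1 of 6 was detected, since most reached a TPM of 1 in replicate 1 alone. The part of all these marker lists, the enterocyte list included, in the levels of the retinoid genes was not tested. Rbp4, the retinol carrier of blood plasma that the liver makes, read 66.74 and 44.45 TPM, 1.48-fold higher in replicate 1. Its partner in plasma, Ttr, read 89.43 and 88.04.

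**Figure D3:**
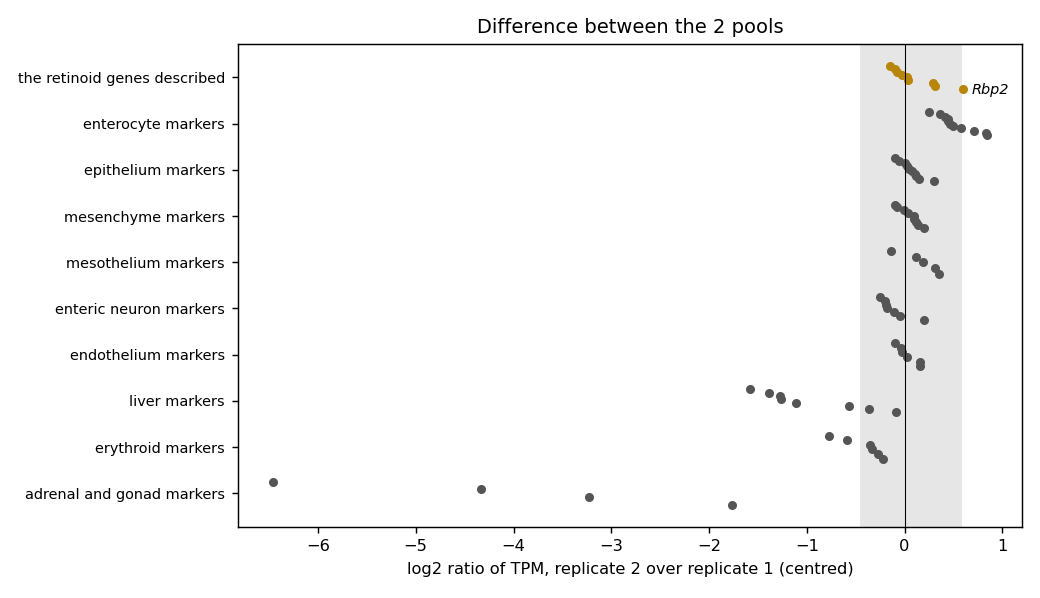
Log2 ratio of TPM, replicate 2 over replicate 1, for the retinoid genes and for cell type markers that reach 1 TPM in the mean (1 point a gene). The grey band is the middle 95% of 13509 genes: Rbp2, at 0.60, lies just outside it. The enterocyte markers shown are all higher in replicate 2, most of them inside the band. The liver and adrenal markers shown are all higher in replicate 1, with some liver markers inside the band.

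Other genes of the pathway were read too. Besides the 9 genes, 85 genes were read from lists of uptake, oxidation, receptors, response and the eye, of which 62 were detected. The same threshold was passed by 62.0% of 21474 protein-coding genes, and the list counts that follow are to be read beside that share. In uptake, esterification and export, 17 of 18 were detected, at a median of 45.5 ± 3.31 TPM. The highest were Mttp, which loads lipid onto lipoproteins, at 414 ± 101, the esterifying enzyme Dgat1 at 142 ± 17.0, and Isx at 89.7 ± 4.48. Lrat, the main retinol esterifying enzyme, which takes retinol from RBP2, read 12.12 and 13.7. Apob, the protein of the lipoproteins that export retinyl ester, read 51.68 and 79.95 and was the 1 detected gene of this list past 1.5-fold, higher in replicate 2 as Rbp2 was. Plb1, which can cleave retinyl ester at the brush border, was lowest at 1.11 and 0.61. The membrane receptor Stra6 read 2.26 and 2.83.

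Of the enzymes that interconvert retinol and retinal, 13 of 22 were detected, a share close to the 62.0% of all protein-coding genes. Adh1, an alcohol dehydrogenase that can oxidise retinol, was highest at 683 ± 75.2 TPM, followed by Adh5 at 190 ± 6.51 and Cbr1 at 138 ± 5.20. The enzymes best known for this step in embryos, Rdh10 and its counterpart Dhrs3, which returns retinal to retinol, read 18.18 and 20.7 TPM and 104.15 and 113.13 TPM. Dhrs3 was thus the more abundant of that pair in both libraries. None of the detected genes of this list passed 1.5-fold. Adh4 had 5 and 5 reads, and Rdh9 had 0 in replicate 1 and 16 in replicate 2. Rdh19 was lowest, with 0 and 1.08 estimated reads.

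Other genes of synthesis and breakdown were detected in 4 of 6 cases. Fabp5, a lipid carrier that can also bind retinoic acid, stood at 187 ± 18.6 TPM, far above the sum of both Crabp genes, which was 11.3 ± 0.424. Cyp2s1, a further enzyme able to oxidise retinoic acid, stood at 34.4 ± 1.37, above Cyp26a1 and Cyp26b1. Aldh8a1, which acts on the 9-cis form of retinal, was not detected, at 0.98 TPM from 62 reads in replicate 1 and 0.21 from 13 in replicate 2.

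Receptors and cofactors were detected in 14 of 16 cases, at a median of 9.79 ± 0.0742 TPM, and none passed 1.5-fold. Ncor1, a corepressor of unliganded receptors, was highest at 35.2 ± 0.969, then Rxrb at 32.0 ± 0.728 and Nrip1 at 26.3 ± 1.07, and Nr2f1 was lowest at 0.880 ± 0.184. The retinoic acid receptors read 24.06 and 26.6 TPM for Rara, 12.58 and 11.59 for Rarg and 7.02 and 6.55 for Rarb, the receptor gene that retinoic acid induces. Of genes known to respond to retinoic acid, 23 of 28 were detected at a median of 7.46 ± 0.679. Dhrs3 was highest at 109 ± 6.35, then Isx and Rarres2 (83.5 ± 3.46), and the germ cell gene Stra8 was lowest, with no read in either library. For Stra8 the floor of 3 reads is 0.0894 and 0.0920 TPM, and its deposited intervals reached 0.344 and 0.356 TPM. The list holds Cyp26a1 and Cyp26b1 too, which were among its 7 lowest genes, so genes of the same known inducer stood at very different levels in this tissue.

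**Figure D4:**
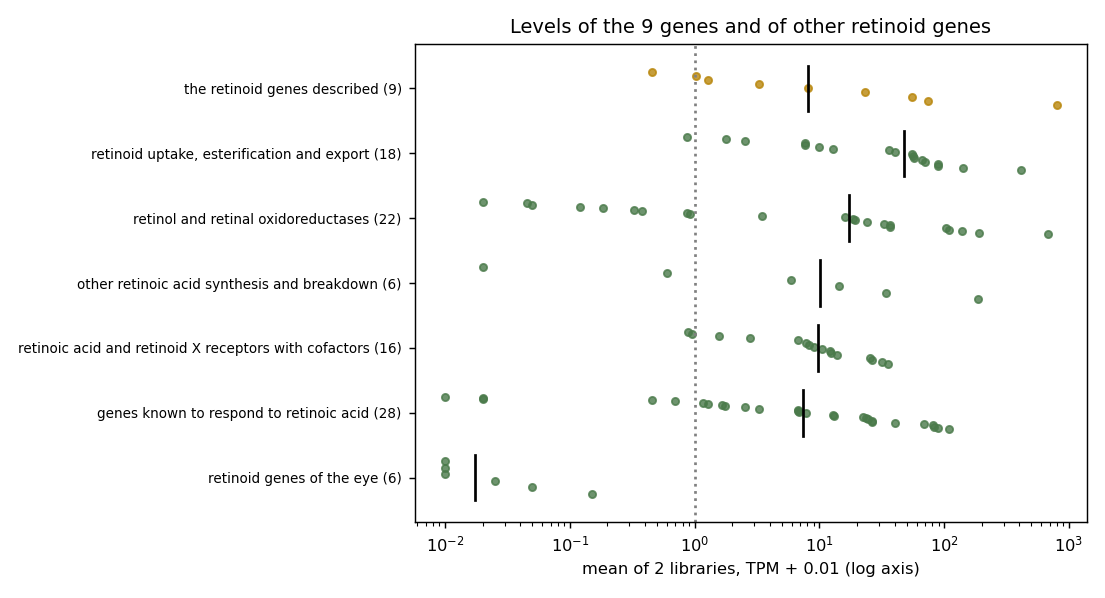
Mean TPM of the 2 libraries (plus 0.01, log axis) for the 9 genes and for 6 lists of other retinoid genes, with a bar at each list's median and a dotted line at a TPM of 1. Numbers in brackets are genes in a list: the uptake list has the highest median, at 45.5, and no retinoid gene of the eye reaches a TPM of 1.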

How the data were processed

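The 2 total RNA libraries of intestine used RNA longer than 200 nt, per the labels. Genes follow GENCODE M4 on mm10, per the deposited notes. No source used here states the aligner, quantifier or strandedness. Expected counts, as deposited, are unnormalised estimates of the reads of each gene or transcript. The deposited TPM values are counts over effective length (length minus 99), scaled so that all features of a library sum alike. FPKM, as deposited, is scaled by length and assigned reads. The deposited percent values are each transcript's share of its gene.

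Symbols and coordinates came from GENCODE M21, which matched 42462 of 43346 identifiers. Numeric features that name no gene held 0.000147% and 0.000157% of counts. Ratios between pools used TPM plus 0.1, centred by -0.0150 in log2. Alternatives used other pseudocounts, thresholds, posterior means, FPKM, TMM (edgeR 4.0.16) and size factors (DESeq2 1.42.0) on expected counts rounded to whole numbers in R 4.3.3. Remaining steps ran in Python 3.11.15 (pandas 2.3.3, Biopython 1.88). Coding sequences of GENCODE M21 transcripts were aligned globally, and promoter motifs were chosen after the promoters were read. The ratio and its centring were tested on simulated data. The genes and lists were chosen with earlier results of these data known. Genes named were the 9, their pair partners and, of each pathway list, the highest 3, the lowest and those past 1.5-fold, while others (Scarb1, Lrat, Stra6, Rbp4, Ttr, Rdh10, the receptors Rara, Rarb and Rarg, Gm37113, C730002L08Rik, Treh, Rpe65, Rbp3, Atp4a, Tff1 and Tff2) were chosen after their values were seen. Spread covers these 2 pools only. A further comparison that was made is not reported here.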

Additional observations from a re-analysis of the deposited data

How the results depend on the processing

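Of 9 genes, 7 were detected, and 5 to 9 were under the other thresholds and units: 8 at a TPM of 0.5, 5 at a TPM of 5, 9 at 10 reads, 8 by posterior mean and 6 by FPKM. With either library left out, 7 or 8 were. The pathway genes detected ranged from 62 to 71 of 85. In reads scaled to library size but not to length, Crabp2 over Cyp26b1 reversed to log2 -1.08, Cyp26b1 over Bco1 became apart at 1.29, and Aldh1a1 over Aldh1a2, at 0.26, was no longer apart. Those 3 changes come from the lengths of the gene models. The other pair ratios kept their direction and call under posterior means and pseudocounts of 0.01 and 1, but not always their size. In reads without length Rbp2 over Aldh1a1 was 1.64 (3.41 in TPM) and Aldh1a3 over Crabp1 was 3.61 (1.52 in TPM). The count of genes past the fold between pools fell from 1 to 0 at 2-fold and to 0 without centring, where Rbp2 stood at 0.58. It stayed at 1 under TMM, size factors, posterior means and both pseudocounts. The share of all genes past 1.5-fold was 2.46% with a pseudocount of 1 and 9.35% with no filter on low values. Leaving out a library gave no spread for the order, the pairs' calls or the pools, so those were not run as tests. No paired analysis was possible because both libraries belong to 1 group. Bco1 and Cyp26a1 are limited by depth, at 19 to 69 reads.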

Other observations

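Retinoid genes of the eye, which serve the visual cycle, were read beside the other retinoid lists. Of these 6 genes, 0 were detected. Rlbp1, a carrier of retinal, was highest at 0.11 and 0.17 TPM, and Rpe65, Rbp3 and Rgr had no read in either library. For Rpe65 the floor of 3 reads is 0.0678 and 0.0699 TPM. Cyp26a1, at 0.39 and 0.50 TPM, lay above all 6 in both libraries. Its deposited interval overlapped that of Rlbp1 in replicate 1 (0.233 to 0.574 against 0.0604 to 0.243) but not in replicate 2 (0.321 to 0.717 against 0.0935 to 0.311).

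Composition of the promoter windows differed widely among the genes. The window of Aldh1a2 was 78.0% G and C and that of Crabp1 65.0%, against 50.3% for Rbp2 and 43.3% and 47.0% for the starts of Aldh1a1, with a median of 52.7% over all windows. These are values of the reference sequence and were compared with no measurement.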
